A study of Mus musculus with 384 samples.

Results

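Single cells sorted as mammary progenitors from embryonic skin were divided by how much Lgr5 transcript each one held, and the other genes of the cells with more and with less of it were compared. Wells of the embryonic gate were kept when gene reads numbered 50000 or more, 1500 or more genes were seen and mitochondrial transcripts took no more than 20% of the reads. That left 89.8% of the gate's single-cell wells, with 14 left out, among 331 single cells of the series under the same limits on a plate of 384 wells. The sides were chosen by the Lgr5 level itself, in CPM (reads of a gene per 1000000 gene reads of the cell): 96 cells held Lgr5 at 100 CPM or more and are called Lgr5-high, and 27 cells held less and are called Lgr5-low. Because Lgr5 made the division, its own values below are a description and carry no comparison.

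The cells came from the whole skin, mammary buds included, of female mouse embryos at embryonic day 14 that carried the reporter allele labelled Lgr5-EGFP-IRES-CreER, in which green fluorescent protein marks transcription of the Lgr5 locus. The embryonic sort label is CD49f Hi/Lgr5 Hi. Cells with the surface proteins CD45 (blood lineage), CD31 (endothelium) or CD140a (the PDGF receptor alpha of fibroblasts) were excluded at the sort, dead cells were excluded with DAPI, and green fluorescent cells were taken into single wells of a plate for full-length cDNA by a modified Smart-seq2 protocol. The adult gates, used here only for their Lgr5 level, came from mammary glands labelled Rosa-tdTomato and were sorted as CD24+CD29Hi (basal) and CD24+CD29Lo (luminal), with no age in the labels. The labels name no embryo, litter or animal for any well, so both sides are cells of 1 sorted sample and no test between them was made. Intervals of ratios below cover counting error of reads only, and reads copied by PCR are not independent molecules. Intervals of shares treat the cells of this 1 sample as independent draws. They measure no spread between animals and are no test between the sides.

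Lgr5 is a seven-pass receptor for R-spondins, secreted proteins that remove the ubiquitin ligases Znrf3 and Rnf43 from the cell surface and thereby raise the number of Wnt receptors. It is itself switched on by canonical Wnt signalling, and it marks stem cells of the intestine and hair follicle and cells of the mammary bud. The mammary bud of this stage is a ball of epithelium that grows out of the embryonic epidermis into a mesenchyme with which it exchanges Wnt, FGF, BMP and parathyroid-hormone-like signals. Canonical Wnt signalling is commonly read from genes such as Axin2, Lef1 and Nkd1.

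Lgr5 (GRCm38 chromosome 10, 115450311 to 115587780, minus strand) spanned the full range from 0 to 3002 CPM over both sides, with a median of 424 CPM. Lgr5-high cells ran from 104.1 to 3002 CPM with a median of 529, and Lgr5-low cells from 0 to 96.5 CPM with a median of 6.30. In the low side, 8 cells had no Lgr5 read, 7 cells had a read at under 10 CPM and 12 cells lay between 10 and 100 CPM. In the high side 46 cells were under 500 CPM and 50 were at 500 CPM or more. The limit cuts a continuous range, since 6 cells lay between 50 and 100 CPM and 11 between 100 and 200 CPM. The 4 cells just under it held 67.8, 73.4, 79.2 and 96.5 CPM, and the 4 just over it between 104.1 and 110.8 CPM. One cell on either side of the limit rested on 6 Lgr5 reads. Summed over cells, Lgr5 stood at 678 CPM (48531 reads) in the high side and 27.8 CPM (490 reads) in the low side.

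Lgr5 levels in the other gates are given for scale, as a description. At 100 CPM or more, Lgr5 was found in 78.05% of embryonic cells (Clopper-Pearson 95% interval 69.7 to 85.01%), in 24 of 100 adult basal cells (16.02 to 33.6%) and in 7.41% of adult luminal cells (8 cells, 3.25 to 14.1%). Any Lgr5 read was seen in 93.5% of embryonic, 41% of basal and 17.6% of luminal cells, at median depths of 711721, 486690 and 535276 gene reads. The well of 50 embryonic cells held 298 CPM, between the medians of the 2 sides and below that of all embryonic cells. The 4 wells without a cell had no Lgr5 read.

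**Figure D1:**
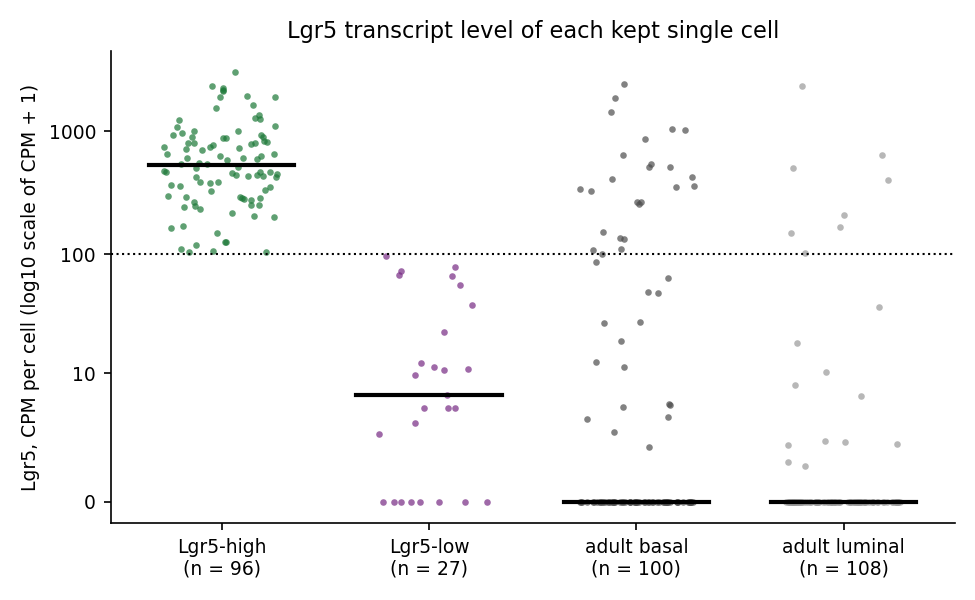
Lgr5 level in CPM (vertical axis, log10 scale of CPM + 1) for each kept single cell of the 2 embryonic sides and the 2 adult gates. Points are cells, bars are medians and the dotted line is the limit of 100 CPM; the embryonic values run without a gap across it, and most adult cells sit at 0.

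The sides differed little in the quality of their libraries. Median depth was 737920 gene reads in Lgr5-high and 627479 in Lgr5-low cells, with 5590 and 5338 genes per cell and 5.40% and 5.44% mitochondrial reads. With every cell thinned to 50000 reads, the median was 4001.5 genes in the high and 3695 in the low side. Spike-in RNA took 3.55% and 4.45% of reads, and the plate rows L to P held 84.4% and 74.1% of the cells. The part of these differences in the results was not tested.

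Markers of another tissue divided the low side. Of 12 fibroblast or mesenchyme markers, cells with at least 3 (each at 5 reads or more after thinning to 50000) numbered 21 of 96 in the high side (21.9%, 14.1 to 31.5%) and 8 of 27 in the low side (29.6%, 13.8 to 50.2%). At least 3 of 33 epithelial markers were found in 93 high cells (96.9%) but in 19 low cells (70.4%, 49.8 to 86.2%). In the high side 18 of the 21 fibroblast-marked wells also held 3 or more epithelial markers, and in the low side none of the 8 did. Wells with 3 or more fibroblast markers and fewer than 3 epithelial markers were thus 3 of 96 (3.13%, 0.649 to 8.86%) against 8 of 27 (29.6%). Among the 8 cells without an Lgr5 read, 4 were of this kind.

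The 11 wells with fibroblast markers only were chosen by mesenchymal and epithelial transcripts, so their levels of these are a description. Pdgfra, which encodes the CD140a protein excluded at the sort, had reads in all 11 wells, from 126.2 to 1775 CPM with a median of 566. Col1a1, the major fibrillar collagen of connective tissue, ran from 899 to 19599.6 CPM in them. Epcam, the epithelial adhesion protein, had 0 reads in 9 of the 11 wells, and Krt14, a basal keratin, had 0 in 8. Itga6, which encodes the CD49f used for the sort, ran from 0 to 1279 CPM with a median of 235, against a median of 964 in Lgr5-high and 939 in Lgr5-low wells with epithelial markers only. The 3 Lgr5-high wells among them held Lgr5 at 443 to 1618 CPM, so a fibroblast profile and a high Lgr5 level did occur together. Ptprc, which encodes CD45, had no read in either side, while Pecam1, which encodes CD31, stood at 6.16 CPM in the high and 0.341 CPM in the low side.

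Wells that held both kinds of marker had gene numbers close to the rest. Their median after thinning was 3911 genes, against 4054 in Lgr5-high wells with epithelial markers only, and no doublet caller was run. Their median fibroblast sum was 1626 CPM and their median epithelial sum 6876 CPM. Comparisons below are over all cells and, where stated, again over the 75 high and 19 low cells with fewer than 3 fibroblast markers, called the epithelial wells, each of which had at least 3 epithelial markers. Since the fibroblast markers made this class, their own values in it are no result.

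**Figure D2:**
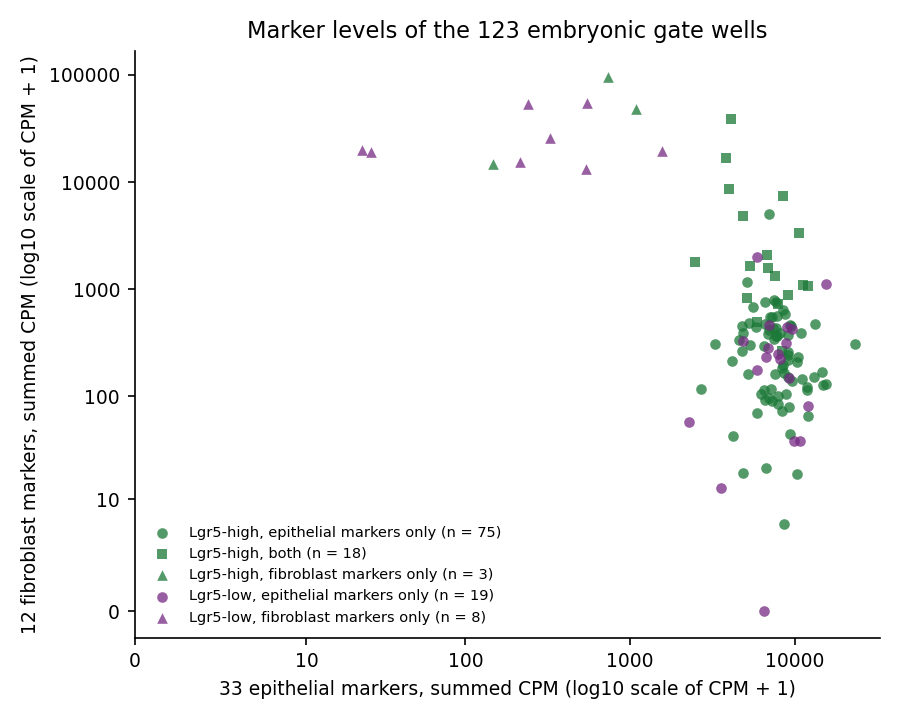
Summed CPM of 12 fibroblast markers (vertical) against 33 epithelial markers (horizontal), both on a log10 scale of CPM + 1, for the 96 Lgr5-high and 27 Lgr5-low wells. Colour gives the side and shape the markers seen; the 11 triangles are wells with fibroblast markers only, 8 of them Lgr5-low.

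Levels were compared as reads summed over the cells of a side and divided by that side's gene reads, as log2 ratios of Lgr5-high over Lgr5-low after adding 1 CPM. Genes that reached 5 CPM in one side or both count as measured. Among 12385 measured genes other than Lgr5, 2757 (22.3%) stood 2-fold or more higher in Lgr5-high cells and 1920 (15.5%) stood 2-fold or more lower, around a median log2 ratio of 0.11. The epithelial wells had 12044 measured genes, 3385 (28.1%) of them 2-fold or more higher and 1804 (15.0%) 2-fold or more lower, around a median of 0.19. Of the genes apart in all cells, 2191 higher and 1139 lower ones were apart in the same direction there. The counts of each gene group below are read against these shares. The sides hold unequal numbers of cells, and the part of this in the shares was not tested.

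The other receptors for R-spondins were within 2-fold between the sides. Lgr4, the broadly expressed relative of Lgr5, ranged from 0 to 1300.5 CPM with a median of 32.6 in Lgr5-high and from 0 to 579.7 CPM with a median of 54.9 in Lgr5-low cells. Its summed level was 158 against 106.4 CPM, a ratio of 1.49 (1.42 to 1.56), while detection (5 reads or more at 50000 reads per cell) was 39.6% against 40.7% of cells. Every Lgr5-low value of Lgr4 lay within the range of the Lgr5-high cells. Lgr6, the third receptor of the family, summed to 223 against 175 CPM and was detected in 46.9% and 37.0% of cells. The order of Lgr6 was opposite in the epithelial wells, with 227 against 256 CPM.

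The membrane ubiquitin ligases were closer in the epithelial wells than in all cells. Znrf3 was detected in 77.1% of Lgr5-high and 59.3% of Lgr5-low cells and summed to 379 against 309 CPM, and in the epithelial wells it was equal at 403 and 404 CPM. Rnf43 had a median of 28.8 CPM in the high and 0 in the low cells and summed to 134.3 against 66.5 CPM (ratio 2.02, 1.90 to 2.15). One cell gave 37.1% of the Rnf43 reads of the low side. The Rnf43 sums were 143 against 97.4 CPM in the epithelial wells. Of the R-spondins, Rspo2 and Rspo4 had no read. Rspo1 summed to 7.29 against 37.4 CPM and Rspo3 to 0.014 against 11.5 CPM, the latter from 1 read in 1 high cell and 203 reads in 1 low cell. One cell gave 83.3% of the Rspo1 reads of the high side. Both were under 0.1 CPM in either side of the epithelial wells. Over the 6 measured genes of this list 1 was at least 2-fold higher and 2 lower, with a median of 0.32 (0.22 over the 4 measured in the epithelial wells).

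Wnt receptors and ligands showed no common direction. Among 13 measured receptors 4 were at least 2-fold higher and 2 lower, with a median of -0.03. Lrp6, the main co-receptor, summed to 282 against 317 CPM. Among 12 measured ligands 3 were higher and 2 lower, with a median of 0.19. Wnt6, the most abundant ligand of the high side, had a median of 188 CPM in Lgr5-high and 2.65 in Lgr5-low cells but summed to 254 against 188 CPM, and to 290 against 275 CPM in the epithelial wells. Wnt5a, a ligand of non-canonical signalling, summed to 196 against 280 CPM. Wnt10b, an early marker of the mammary line and bud, summed to 14.5 against 0.966 CPM. It had no read in 74 of 96 and 25 of 27 cells, and 1 cell gave 40.9% of the reads of the high side and 94.1% of those of the low side.

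As a list, targets of canonical Wnt signalling lay lower where Lgr5 was high, by amounts that for most members were under 2-fold. None of the 14 measured targets and feedback genes was at least 2-fold higher and 4 were at least 2-fold lower in Lgr5-high cells, with a median log2 ratio of -0.53 against 0.11 over all measured genes. Axin2, the feedback scaffold most often used as a readout, had medians of 5.16 CPM in Lgr5-high and 29.1 in Lgr5-low cells and ran to 1303 and 413 CPM. Its summed levels were 45.1 and 57.04 CPM, 1.27-fold (1.18 to 1.36) higher in the low side. Axin2 had no read in 40 of 96 high and 6 of 27 low cells, and every Lgr5-low value lay within the range of the Lgr5-high cells.

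Part of that difference sat in the wells with fewer than 3 epithelial markers. All 11 wells with fibroblast markers only had Axin2 reads, from 2.90 to 513 CPM with a median of 112.3. In the epithelial wells the Axin2 median was 4.02 CPM (highest 1303) in the high and 16.4 CPM (highest 126.01) in the low side, and the summed levels were 32.4 and 37.5 CPM. Lef1, a transcription factor of the pathway, had medians of 94.8 and 161 CPM in all cells and 96.8 and 186 CPM in the epithelial wells. It was detected in 47.9% of high and 59.3% of low cells, shares whose intervals (37.6 to 58.4% and 38.8 to 77.6%) overlap.

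Other targets lay in both directions once the fibroblast-marked wells were left out. Ccnd1, the cyclin of G1, summed to 291 against 416 CPM in all cells and to 299 against 385 CPM in the epithelial wells. Cd44, an adhesion receptor, summed to 70.9 against 197 CPM, a log2 ratio of -1.46 that stayed at -1.34 there. Nkd1, a feedback inhibitor, had a log2 ratio of 0.33 in all cells and 2.24 in the epithelial wells. Sp5, 19.3 CPM in the low side of all cells, was under 1 CPM on either side there. The list then had 2 higher and 2 lower of 12 measured genes and a median of -0.29, against 0.19 for all genes.

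The list of secreted Wnt inhibitors, which also holds the membrane proteins Kremen1 and Kremen2, depended on the fibroblast-marked wells. Of 10 measured, 2 were higher and 3 lower, and without those wells 3 of 7 were higher and none lower. Dkk2 and Wif1 stood at 26.9 and 7.64 CPM in the high against 102.6 and 48.2 CPM in the low side, and in the epithelial wells they were at 0.906 and 2.68 CPM in the high side with no read in the low side. One cell gave 83.7% of the Dkk2 reads of the low side. Sostdc1, an inhibitor of Wnt and BMP signals made by bud epithelium, summed to 87.4 against 29.8 CPM and to 64.6 against 9.23 CPM in the epithelial wells. It was detected in 19.8% of high and 7.41% of low cells.

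Genes that mark Lgr5 cells of the intestine did not go with Lgr5 as a group here. Of 16 measured, 3 were at least 2-fold higher and 2 lower, and the median was 0.08, close to that of all genes. Ephb3, a guidance receptor of the crypt, stood at 44.5 against 13.2 CPM, with 52.4% of the reads of the low side from 1 cell. Slc12a2, an ion transporter of that list, was the opposite. It had no read in 58 of 96 Lgr5-high cells, whose highest value was 777 CPM, and a median of 8.53 and a highest value of 10611 CPM in the low side. Slc12a2 summed to 53.6 against 402 CPM, 7.51-fold (7.22 to 7.82) higher in the low side, and to 29.5 against 490 CPM in the epithelial wells. A single Lgr5-low cell, an epithelial well at 10611 CPM, gave 59.4% of the reads of its side and a larger share among the low epithelial wells. Without that cell Slc12a2 was still at least 2-fold lower in Lgr5-high cells over all wells. Ascl2 and Olfm4, the crypt stem cell genes used most often beside Lgr5, had no read in either side.

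Bmp7 was far higher in Lgr5-high cells. Bmp7, a secreted BMP ligand made by developing epithelia, ranged from 0 to 1146 CPM with a median of 38.6 in Lgr5-high cells, and from 0 to 155 CPM with a median of 0 in Lgr5-low cells. Cells without a Bmp7 read numbered 20 of 96 and 15 of 27. At 50000 reads it was detected in 38.5% of high (28.8 to 49.03%) and 3.70% of low cells (0.0937 to 18.97%). Its summed level was 170 against 15.2 CPM, an 11.2-fold difference (9.94 to 12.7), and no cell gave more than 7.27% of the reads of the high side.

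The difference in Bmp7 held among epithelial wells. Among them it summed to 172 against 22.2 CPM, with medians of 50.0 and 7.96 CPM. Cells were put in 4 ranges of Lgr5: no read, above 0 to 100, 100 to 500, and 500 CPM or more. Over all wells the Bmp7 medians of these ranges were 7.17, 0, 20.6 and 109.1 CPM. In the range with no Lgr5 read, 4 wells had epithelial markers only and held Bmp7 at 14.3, 43.8, 69.4 and 99.4 CPM. No steady rise from the lowest range was seen. The 8 wells of Lgr5-low cells with fibroblast markers only had no Bmp7 read. Of the 14 BMP pathway genes measured over all cells, Bmp7 among them, 2 were at least 2-fold higher and none lower, with a median of 0.17. Id3 and Id2, targets of BMP signalling, summed to 826 against 973 and 246 against 395 CPM. In the epithelial wells 4 of 13 measured pathway genes were at least 2-fold higher and 1, Id2, was lower, with a median of 0.40. There Id3 and Id2 summed to 913 against 1333 and 238 against 494 CPM.

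Mammary bud genes were higher in Lgr5-high cells in part, and less so among epithelial wells. Of 16 measured, 5 were at least 2-fold higher and none lower, with a median of 0.47. Sox11, a transcription factor of embryonic progenitors, had medians of 1052 and 626 CPM. Its sums were 1131 against 749 CPM in all cells and 1209 against 1066 CPM in the epithelial wells. Gata3, a transcription factor needed for the bud, had medians of 900.1 and 405 CPM and was detected in 91.7% of high (84.2 to 96.3%) and 62.96% of low cells (42.4 to 80.6%). Summed, Gata3 stood at 907 against 499 CPM, and at 951 against 730 CPM in the epithelial wells.

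Genes of the exchange between bud and mesenchyme were near equal in part once fibroblast-marked wells were set aside. Pthlh, the parathyroid-hormone-like signal of the bud, summed to 392 against 275 CPM in all cells and 412 against 402 CPM in the epithelial wells. Fgfr2, the receptor for mesenchymal FGFs, summed to 840 against 643 and then 854 against 932 CPM. Nrg3, a neuregulin that specifies the mammary line, remained apart, at 50.7 against 2.33 CPM in all cells and 60.1 against 3.41 CPM in the epithelial wells. It was detected in 12.5% of Lgr5-high (6.63 to 20.8%) and in none of the 27 Lgr5-low cells, which allows up to 12.8%. Wnt10a was the opposite, at 30.0 against 59.9 CPM, with 67.5% of the reads of the low side from 1 cell. Over the list the epithelial wells had 5 higher, 2 lower and a median of 0.13, below the median of all genes there.

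The lists of basal and of epithelial adhesion genes had medians above that of all genes over all wells, and medians near 0 without the fibroblast-marked ones. In all cells 5 of 16 basal genes were at least 2-fold higher and none lower (median 0.39), and 4 of 17 epithelial adhesion genes higher and none lower (median 0.53), the latter a share close to the 22.3% of all genes. In the epithelial wells the basal genes had 1 higher and 1 lower with a median of -0.06, and the adhesion genes 3 higher and none lower with a median of 0.03. Krt14 had medians of 812 and 485 CPM and summed to 1049 against 882 CPM in all cells. Krt14 summed to 1063 against 1290.1 CPM in the epithelial wells. Trp63, the transcription factor of basal epithelium, summed to 240 against 227 and then 226 against 332 CPM.

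A few junction and basement membrane genes stood further apart. Cdh1, the epithelial cadherin, had medians of 123.5 and 40.0 CPM and summed to 230 against 90.6 CPM, and to 258 against 132.5 CPM in the epithelial wells. Pkp1, a desmosome protein, summed to 23.8 against 0.114 CPM, the latter from 2 reads. Lamb3, a subunit of the laminin of the basement membrane, summed to 19.1 against 0.966 CPM, with 76.5% of the reads of the low side from 1 cell. Krt15, a keratin of basal progenitors, summed to 371 against 174 CPM with close medians of 13.9 and 18.6 CPM, and 1 cell gave 20.9% of the reads of the high side. With the Lgr5 limit at 200 CPM its log2 ratio was -1.07.

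Luminal genes gave no higher level in Lgr5-high cells. Of 13 measured 1 was at least 2-fold higher and 4 lower, with a median of -0.05, and of -0.43 in the epithelial wells. Krt8, a luminal keratin that the bud also expresses, summed to 357 against 367 CPM and was detected in 67.7% and 51.9% of cells. Among epithelial wells Krt8 stood at 359 against 537 CPM and its partner Krt18 at 190 against 359 CPM. A single Lgr5-low cell gave 26.3% of the Krt8 and 38.1% of the Krt18 reads of its side. Prlr, the prolactin receptor, summed to 6.82 against 76.4 CPM, but 1 cell on each side gave 77.3% and 80.95% of its reads. Elf5, a regulator of the milk-producing lineage, had 618 reads in the high side and 1 in the low side, and 2 high cells detected it.

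Genes of mitosis had higher summed levels in Lgr5-high cells as a list. Of 20 measured G2 and M phase genes 11 were at least 2-fold higher and 1 lower, with a median log2 ratio of 1.08 against 0.11 for all genes, and in the epithelial wells 12 were higher and 1 lower with a median of 1.53. Top2a, which untangles DNA before division, had medians of 22.3 CPM in high and 0 in low cells and ran to 2366 and 999 CPM. It was detected in 39 of 96 Lgr5-high (40.6%, 30.7 to 51.1%) and 4 of 27 Lgr5-low cells (14.8%, 4.19 to 33.7%). The summed levels were 368 and 123.5 CPM, a 2.98-fold difference (2.85 to 3.12), and 1 cell gave 47.6% of the Top2a reads of the low side.

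Single mitotic genes gave the same direction with exceptions. Mki67, the proliferation antigen, summed to 216 against 122.7 CPM and was detected in 35.4% (25.9 to 45.8%) and 22.2% (8.62 to 42.3%) of cells, intervals that overlap. Cenpf, a kinetochore protein, summed to 203 against 52.2 CPM, and Bub1, a checkpoint kinase, to 53.02 against 1.70 CPM, and 1 cell gave 46.1% of the Cenpf and 46.7% of the Bub1 reads of the low side. Bub1b, its partner in the checkpoint, was the member against the direction at 37.5 against 92.4 CPM, with 49.7% of the reads of the low side from 1 cell. Medians of the summed G2 and M phase level per cell were 283 CPM in Lgr5-high and 39.6 CPM in Lgr5-low cells, and the sums reached 12332 and 8763 CPM, so single cells with high sums occurred in both.

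Genes of DNA replication were 2-fold higher about as often as all genes. Of 18 measured S phase genes 4 were at least 2-fold higher and none lower, with a median of 0.61, and 6 and none with 0.70 in the epithelial wells. Pcna, the polymerase clamp, summed to 268 against 176 CPM and to 257 against 234 CPM in the epithelial wells. Mcm2, a helicase subunit, went the other way at 134.03 against 225 CPM. Cdc45, another subunit of the replicative helicase, had 2885 reads in the high side (40.3 CPM) and none in the low side, at least 236-fold higher against a limit of 3 reads summed over the low side. Only 9 of 96 high cells detected Cdc45 at 50000 reads (9.38%, 4.38 to 17.1%), and in 27 cells a share of up to 12.8% could have gone unseen.

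**Figure D3:**
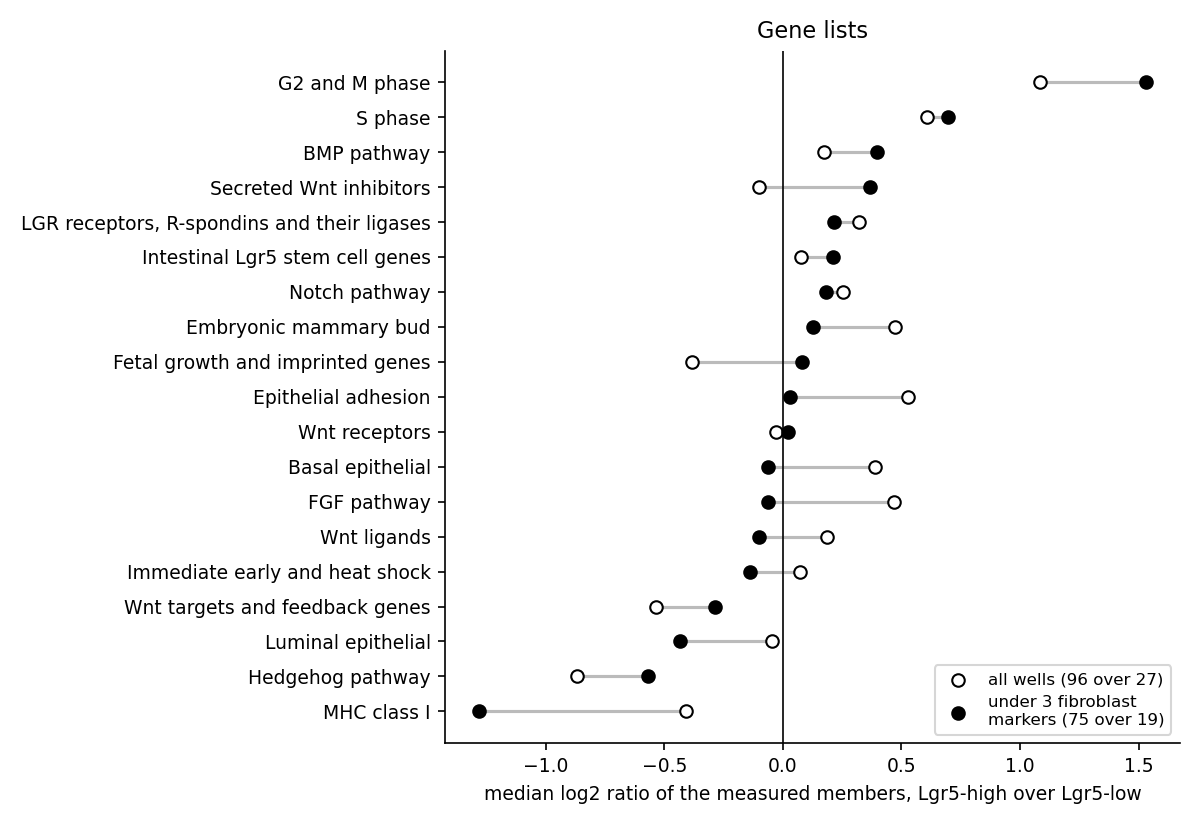
Median log2 ratio of Lgr5-high over Lgr5-low (horizontal) for the measured members of 19 gene lists, over all 96 and 27 wells (open) and over the 75 and 19 wells with fewer than 3 fibroblast markers (filled). The G2 and M phase list lies highest in both, and 7 lists change sign between the open and filled points.

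Hedgehog and imprinted genes were lower in Lgr5-high cells as lists, the imprinted ones only with the fibroblast-marked wells included. None of 11 measured Hedgehog genes was 2-fold higher and 5 were 2-fold lower (median -0.87), and in the epithelial wells none of 9 was higher and 2 were lower (median -0.57). Gas1, a Hedgehog co-receptor, stood at 81.3 against 202 CPM, and Hhip, a target and inhibitor of the pathway, at 0.405 against 22.4 CPM. Outside fibroblast-marked wells Hhip was under 0.1 CPM on both sides. Of 13 measured fetal growth and imprinted genes 1 was higher and 4 lower (median -0.38), and without the fibroblast-marked wells 1 was higher and none lower (median 0.08).

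Imprinted growth genes showed how far a few wells set a sum. Igf2, the fetal growth factor, had close medians of 361 and 449 CPM but summed to 598 against 1249 CPM, and to 384 against 366 CPM in the epithelial wells. Peg3, a paternally expressed regulator, summed to 499 against 1119 CPM and then 354 against 242 CPM. Meg3, a maternally expressed noncoding RNA, stood at 158 against 641 CPM and, in the epithelial wells, at 83.1 against 128.5 CPM. In the 4 ranges of Lgr5 the per-cell medians of Meg3 were 271, 181, 21.99 and 12.3 CPM, and those of Peg3 1454, 228, 208 and 66.99 CPM. The lowest range held 8 cells, of which 4 had fibroblast markers only.

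The remaining lists lay near the level of all genes or rested on few members. Notch genes had 2 higher and 1 lower of 9 measured (median 0.25), and FGF genes 4 higher and 1 lower of 13 (median 0.47, and -0.06 in the epithelial wells). Spry4, a feedback inhibitor of FGF signalling, stood at 26.1 against 4.89 CPM, while Dusp6, another feedback gene, stood at 68.5 against 166 CPM. Immediate early and heat shock genes had none higher and 2 lower of 13 (median 0.07). Of 6 measured MHC class I genes 1 was higher and 2 lower (median -0.41, and -1.28 in the epithelial wells with 3 lower). H2-K1 and H2-D1, classical class I chains, went opposite ways at 48.2 against 11.8 and 34.1 against 95.1 CPM, and B2m, their shared light chain, was level at 197 against 198 CPM.

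Marker lists of other cell types were summed in the same way. Of 9 immune markers only Cd74 was measured, at 7.17 against 11.3 CPM. Endothelial markers summed to 24.5 against 41.02 CPM, with Tek and Emcn at 0 reads. Of the 3 measured ones, 2 were at least 2-fold higher in Lgr5-high cells and 1 lower. Melanocyte markers summed to 12.5 against 6.87 CPM and muscle markers to 5.21 against 5.57 CPM. Sums were 92.3 against 104.1 CPM for Schwann cell or neural crest, 35.9 against 44.4 CPM for erythroid and 0.196 against 0 CPM for Merkel cell markers. Suprabasal and periderm markers summed to 259 against 271 CPM and hair placode markers to 540 against 434 CPM, with Shh, Foxi3 and Foxe1 at 0 reads. Fibroblast markers were far apart, 10 of 12 at least 2-fold lower in Lgr5-high cells. Their sum was 2600.4 against 10627 CPM, while the medians per cell were 356 and 326 CPM. In the epithelial wells the sums were 306 and 375 CPM.

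Genes were then named by a rule on size that also asked for 50 CPM in the higher side, 10 CPM in at least 30% of its cells, and the same direction at 2-fold by the mean of cells, after thinning and without the cell of the higher side that held most of the gene's reads. It was met by 382 genes, 280 of them higher in Lgr5-high cells, beside 2757 higher and 1920 lower among 12385 measured genes. The limits applied to 96 cells for higher and 27 cells for lower genes, so the counts of the 2 directions are not comparable. The 15 with the largest ratios of each direction are described, as a selection by size. The 15 higher genes had summed levels of 51.5 to 170 CPM in the high and 2.44 to 16.6 CPM in the low side. Log2 ratios ran from 2.86 to 3.96. All 15 were also at least 2-fold higher in the epithelial wells, at 2.49 to 5.64. These wells are part of the cells by which the genes were picked, so this is no independent result. The 15 genes were detected in 15.6 to 41.7% of Lgr5-high and 0 to 11.1% of Lgr5-low cells, shares that in part follow from the rule.

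Besides Bmp7 the 15 higher genes included Pcdhb17, a clustered protocadherin of cell adhesion (52.6 against 2.44 CPM), Dpysl5, a regulator of the neuronal cytoskeleton (75.8 against 6.02 CPM), and Grip1, a scaffold that places membrane proteins at epithelial cell borders (76.9 against 7.50 CPM). Grip1 was detected in 29.2% of high (20.3 to 39.3%) and in none of 27 low cells. Asf1a, a histone chaperone, stood at 135.03 against 14.8 CPM, Ube2g1, a ubiquitin-conjugating enzyme, at 139 against 14.5 CPM and Synrg, an adaptor of vesicle traffic, at 135.3 against 16.6 CPM. Nde1, which acts on the mitotic spindle, stood at 114.6 against 14.5 CPM. Low-side sums of some rested on 1 cell, which gave 63.9% of the Nde1, 47.7% of the Asf1a and 61.3% of the Pwp1 reads of that side. Others among the 15 were Pwp1, Fbxl20, Ttc19, Txlng, Nhsl1 and R3hcc1.

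The 15 lower genes were of 2 kinds. Without the fibroblast-marked wells 7 lay in the other direction, 2 stayed lower by less than 2-fold, and 6 stayed at least 2-fold lower. Prrx1, a transcription factor of limb and skin mesenchyme, summed to 15.0 against 199 CPM, had no read in 83 of 96 high and 18 of 27 low cells, and Pdgfra to 22.4 against 189 CPM. These 2 of the 7 are among the fibroblast markers by which the wells were set aside, so their values in the epithelial wells are no result. The other 5 were Col23a1, Col6a3, Thsd4, Fam114a1 and Pth1r, the receptor for the Pthlh signal in mammary mesenchyme. Pth1r stood at 23.9 against 152 CPM in all cells and 12.2 against 1.58 CPM in the epithelial wells. Zeb2 and Scarf2 came to log2 ratios of -0.06 and -0.92 there.

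Slc12a2, Ttc21b, Cdh11 and Col6a2 were among those lower in epithelial wells too. Ttc21b, a component of cilium transport, summed to 14.4 against 101.3 CPM and then 7.30 against 87.7 CPM. Cdh11, a mesenchymal cadherin, and Col6a2, a collagen VI chain, were at 1.30 against 8.56 and 6.52 against 28.4 CPM there. Ttc21b was detected in 4 of 96 high and 4 of 27 low cells and Cdh11 in 2 and 6, so each of these rests on few cells.

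**Figure D4:**
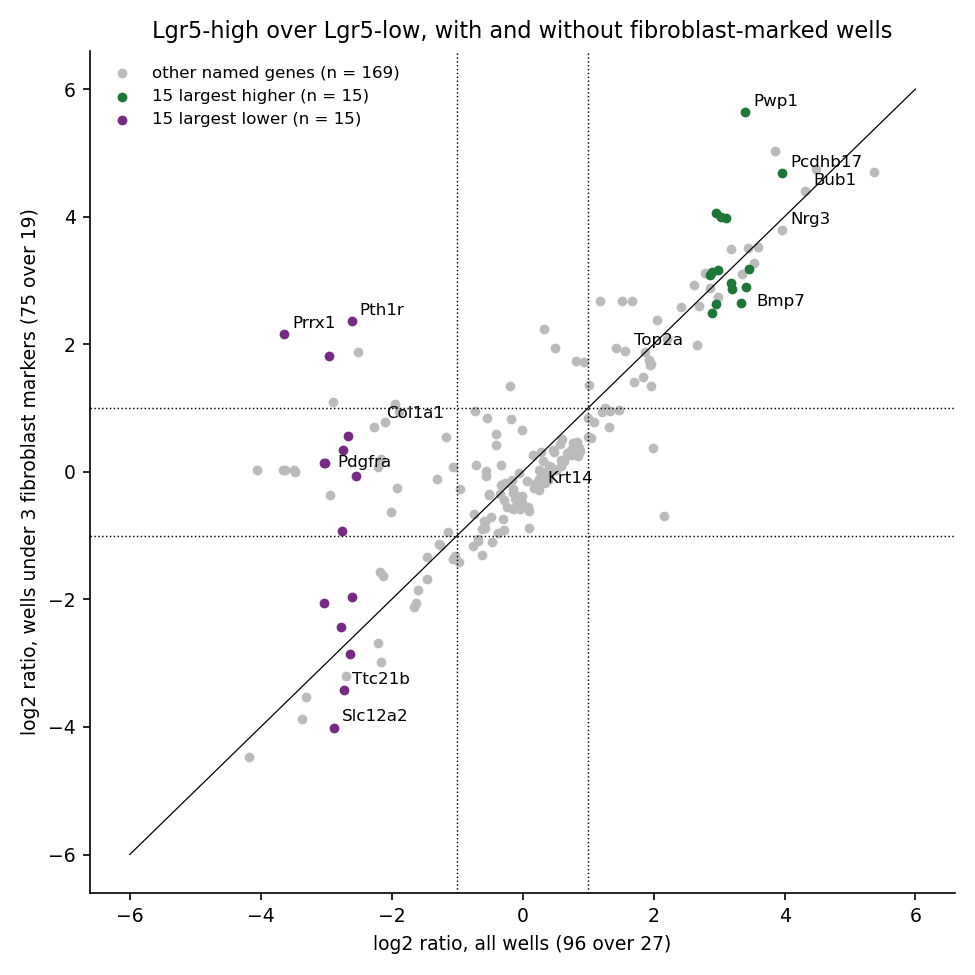
Log2 ratio of Lgr5-high over Lgr5-low for 199 named genes over all wells (horizontal) and over wells with fewer than 3 fibroblast markers (vertical). The wells of the vertical axis are part of those of the horizontal axis, by which the 15 genes of each direction were picked. Dotted lines mark 2-fold and the diagonal marks equal ratios; the 15 largest higher genes stay above 2-fold on both axes, while 7 of the 15 largest lower genes lie above 0 on the vertical axis, among them Prrx1 and Pdgfra, which helped to define those wells.

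Likeness to Lgr5 across cells was weak for every gene. Spearman coefficients with the Lgr5 level over the 96 and 27 cells together were computed for 5298 genes at 10 CPM or more in at least 30% of cells, as a description in which depth and well composition are shared. Their median was 0.0248, with 5th and 95th percentiles of -0.135 and 0.179. Only 10 genes exceeded 0.3, led by Plcb4, a phospholipase of receptor signalling (0.398), and Bmp7 (0.358). In the 94 epithelial wells these were 0.340 and 0.352, and Eif2b1, a translation factor subunit, was above both at 0.376. Plcb4 had per-cell medians of 0, 4.10, 38.9 and 92.9 CPM in the 4 ranges of Lgr5, though its summed levels of 126.02 and 111.4 CPM in the 2 sides were close and lay the other way in the epithelial wells (136.2 against 163 CPM). The remaining 8 were Dpf2, Eif2b1, Brcc3, Crnde, Ptpro, Ell2, Rflnb and Zzef1, and the 7 of them besides Eif2b1 lay between 0.205 (Ell2) and 0.338 (Ptpro) in the epithelial wells. Sema5a was lowest at -0.333 in all cells and stood at -0.174 there.

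The 4 ranges of Lgr5 show how levels ran along it. Summed Wnt target levels per cell had medians of 1352, 1084, 911 and 735 CPM from the lowest to the highest range, in decreasing order throughout, with n = 8, 19, 46 and 50 cells. These ranges are over all wells, and 4, 4, 9 and 12 of their cells had 3 or more fibroblast markers. The Wnt target list summed to 954 CPM in Lgr5-high and 1373 CPM in Lgr5-low cells, but to 919 and 1023 CPM in the epithelial wells. Basal genes had 715, 2494, 3718 and 3608 CPM, and fibroblast markers 7817, 326, 307 and 380 CPM, and 4 of the 8 cells of the lowest range had fibroblast markers only. G2 and M phase genes had 139, 39.6, 224 and 310.2 CPM. Krt14 had medians of 280.3, 485, 825 and 798 CPM, Axin2 38.5, 16.4, 3.36 and 5.26 CPM, and Top2a 9.60, 0, 10.2 and 24.9 CPM.

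**Figure D5:**
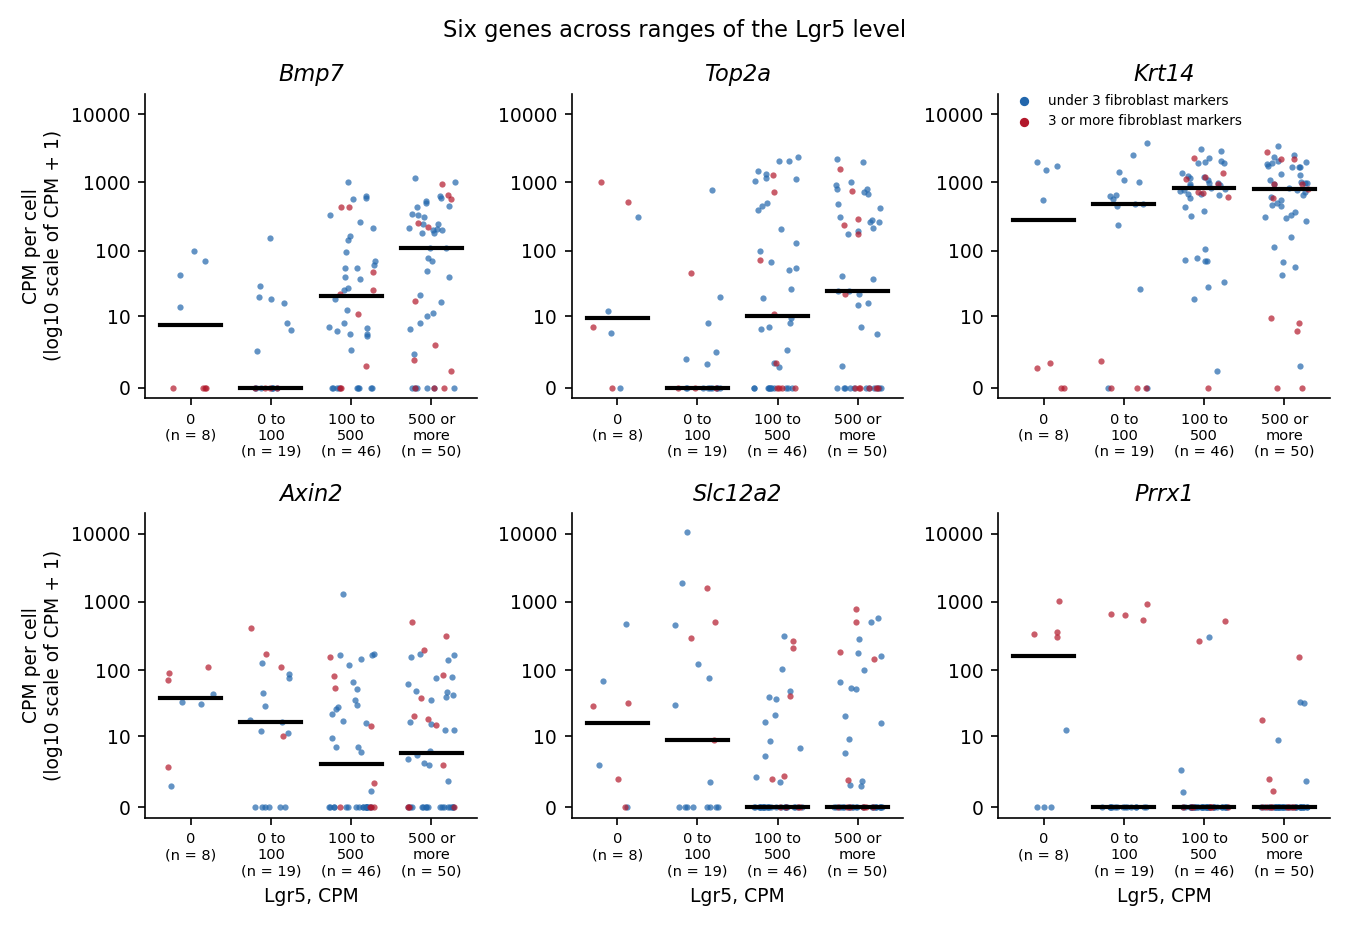
CPM per cell (log10 scale of CPM + 1) of 6 genes in cells grouped by Lgr5 level: no read (n = 8), above 0 to under 100 CPM (19), 100 to under 500 (46) and 500 or more (50). Points are cells, red those with 3 or more fibroblast markers, and bars are medians; Bmp7 medians are 7.17, 0, 20.6 and 109.1 CPM. Prrx1 values above 100 CPM are nearly all red, but Prrx1 is among the markers that define the red cells.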

How the data were processed

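Single cells in the wells of 1 plate were made into Nextera XT libraries after 24 cycles of cDNA amplification with ERCC spike-in RNA, per the labels' protocols. The deposited values are raw read counts per gene, which the authors made with cutadapt 1.13, STAR 2.5.2b and HTSeq 0.6.0 on GRCm38, per the submitters' processing notes. Which annotation and strand setting HTSeq used is not stated in those notes or the labels, and overlapping and antisense genes may share reads. Of 49585 gene identifiers, 43749 matched the reference annotation exactly, 5577 without the version and 259 did not. Groups came from the sample titles. The 92 spike-ins were left out of all totals.

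Levels, log2 ratios (1 CPM added), thinning to 50000 reads (seed 1) and Clopper-Pearson and exact conditional Poisson intervals were computed with python 3.11.15, numpy 2.4.6, pandas 2.3.3 and scipy 1.17.1. TMM factors came from edgeR 4.0.16 in R 4.3.3. The computation was tested on simulated data. Named genes were the 15 largest log2 ratios per direction under the limits given in the text, the highest and most extreme members of each list (up to 4 by level, 2 largest and 2 smallest ratios), a short fixed set, and the 10 with the highest Spearman coefficient with Lgr5. A few genes that met the rule are not reported here. Other genes named by a list are described after their values were seen. The members and lists were chosen with earlier results of these data known. No test between the sides was run, because the labels tie no cell to an animal. No doublets were called or removed. Wells outside the limits on reads, genes and mitochondrial share were left out.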

Additional observations from a re-analysis of the deposited data

Results flagged for a closer look

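One well carries labels that name different gates: its title and source are those of the adult luminal cells, and its sort label is that of the embryonic cells. It was assigned to no group and entered no comparison. It held Lgr5 at 187.3 CPM (145 reads of 774060 gene reads), while the 4 wells without a cell had none. In the same well Krt8 stood at 1543 CPM, Krt18 at 4095 CPM and Epcam at 1917 CPM, and Krt14, Krt5, Sox11 and Col1a1 had no read. The reason for its labels was not tested.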

How the results depend on the processing

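Of 65 genes named in the text that lay at least 2-fold apart, 58 remained so by the mean of per-cell CPM and 58 after thinning, 64 with TMM and 63 with median-of-ratios scaling, with none in the other direction. These scalings shifted all ratios by -0.077 and -0.093 on the log2 scale. The 15 largest genes of each direction were named only if 2-fold apart by the mean of cells and after thinning. For them those 2 results were fixed in advance. Over all measured genes, 2139 of the 2757 higher and 1451 of the 1920 lower ones remained so by the mean of per-cell CPM. After thinning 2072 and 1430 did. The numbers of genes 2-fold higher and lower, 2757 and 1920, moved by less than 1.5 times in the other settings, except 1449 and 1174 with a minimum of 20 CPM and 4374 higher with no minimum level. The share of genes 2-fold higher was 17.3% with the Lgr5 limit at 200 CPM (38 low cells). It was 26.7% at 50 CPM (21 low cells) and 30.8% at 10 CPM (15 low cells). The shares 2-fold lower were 14.1, 16.6 and 16.9%. The part of the number of low cells in these shares was not tested. Detection at 1 read in place of 5 took 21 of 40 shares outside their interval. The text rests most on which wells are included: 41 of the 65 genes remained 2-fold apart without the wells with 3 fibroblast markers, and 15 lay in the other direction. Col1a1, Pdgfra and Prrx1 are among the 15 and are markers that chose those wells, so for them this is no result. With the Lgr5 limit at 10, 50 and 200 CPM, 55, 58 and 49 of the 65 remained 2-fold apart, and 2, 1 and 1 lay in the other direction.

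Without those wells the median log2 ratio of the fibroblast list was 0.35, and log2 ratios were 0.71 for Col1a1, 0.13 for Col23a1, 0.34 for Col6a3, 0.93 for Dkk2, 0.56 for Fam114a1, 0.026 for Hhip, 0.068 for Igf2, 0.13 for Pdgfra, 0.54 for Peg3, 2.16 for Prrx1, 2.36 for Pth1r, 0.076 for Rspo1, 0.026 for Rspo3, 1.81 for Thsd4 and 1.88 for Wif1. Without only the 11 wells with fibroblast markers alone, a setting chosen after seeing the data, the list median was 1.52, and ratios were 3.21 for Col1a1, 0.29 for Col23a1, 0.32 for Col6a2, 3.07 for Col6a3, 1.54 for Dkk2, 0.27 for Fam114a1, 0.16 for Gas1, 0.021 for Hhip, 0.27 for Igf2, 2.16 for Pdgfra, 0.68 for Peg3, 3.26 for Prrx1, 2.79 for Pth1r, 3.07 for Rspo1, 0.021 for Rspo3, 0.67 for Sp5, 1.52 for Thsd4, 1.97 for Wif1 and 0.87 for Zeb2. With the Lgr5 limit at 10 CPM, Dkk2 was at 1.34 and Rspo3 at 1.82, at 50 CPM Dkk2 was at 0.80, and at 200 CPM Krt15 was at -1.07. With cells between 10 and 100 CPM left out, Dkk2 was at 0.63 and Rspo3 at 0.020, and in plate rows L to P alone Prlr was at 3.04 and Rspo3 at 0.024. Col1a1, Pdgfra, Prrx1 and the fibroblast list include the markers that chose the wells left out, so their values without those wells are no result. For the others the cause was not tested. Each side is a set of cells of 1 sample, so nothing here measures the spread between animals, and with 27 low cells single wells set many sums. No paired analysis was possible because the labels give no replicate that the 2 sides share.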
